A study of Mus musculus with 20 samples.

Results

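The genes for the STAT transcription factors and for their SOCS feedback inhibitors were followed in nascent RNA of mouse bone marrow-derived macrophages (BMDMs) that were stimulated with lipid A. 9 genes of the 24888 in the table were chosen by name: the 3 inhibitor genes *Socs1*, *Socs3* and *Cish*, and the 6 STAT genes *Stat2*, *Stat3*, *Stat4*, *Stat5a*, *Stat5b* and *Stat6*. Bone marrow of male C57BL/6 wild-type (WT) mice and of *Rel*-/- mice on the same background (cRel-/- in the sample labels) was cultured for 6 days in 8% CMG conditioned medium. The cells were left unstimulated (0 h) or treated with lipid A, the part of bacterial lipopolysaccharide that TLR4 senses, for 0.5, 1, 2 or 6 h. Chromatin-associated RNA was sequenced with a stranded kit in 2 replicates of each of the 10 groups, 20 libraries in all. Marrow from several mice was pooled for each experiment, and the time course was stated to have been repeated independently, as biological replicates. The depth ran from 21.1 to 45.4 M reads per library with a median of 33.4 M. Values are RPKM over the whole gene span, introns included, so they can be compared between genes per length.

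STAT proteins wait in the cytoplasm until a Janus kinase, activated at a cytokine receptor, phosphorylates them; they then pair, enter the nucleus and activate transcription. Some proteins of the SOCS family, among them SOCS1, SOCS3 and CISH, are themselves encoded by STAT target genes. They bind the receptors or kinases to end the signal. In macrophages, lipid A induces cytokines such as interferon-β, IL-6, IL-10 and IL-27, which signal back to the cells through STATs.

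The targeted gene was examined first. *Rel*, which encodes the NF-κB subunit c-Rel, read 1.32 and 2.76 RPKM at 0 h, 7.48 and 20 at 0.5 h, 10.3 and 18 at 1 h, 9.74 and 12 at 2 h, and 3.95 and 7.33 at 6 h in the WT replicates. For the libraries labelled *Rel*-/-, the values were 2 and 2.79 at 0 h, 10.5 and 15 at 0.5 h, 15.6 and 16.2 at 1 h, 9.24 and 9.96 at 2 h, and 4.22 and 4.91 at 6 h. The genotypes overlapped at every time point, and *Rel* rose after lipid A in both. Whole-gene RPKM of *Rel* thus does not separate the genotypes, whereas *Clcf1* at 0.5 h (3.23 and 3.03 RPKM in WT, 0.0573 and 0.0606 in the libraries labelled *Rel*-/-) and *Il12b* at 1 h (27.5 and 16.9, 1.33 and 0.721) differed without overlap. The limma adjusted p of this *Il12b* difference was 0.0555. Which part of the gene the allele lacks is not given in the sources used here, and the genotype of every library below is as labelled.

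Among the unstimulated libraries, WT replicate 2 stood apart. The summed level of 22 interferon-STAT target genes was 181 RPKM there, against 19.9 in WT replicate 1 and 23 and 64.1 in the libraries labelled *Rel*-/-. *Irf7* read 23.6 against 2.96 RPKM in the WT replicates, and *Stat2* 14.3 against 4.69. Changes over time in WT that rest on this library are therefore also given without it. The summed level of these targets also differed between WT replicates 1 and 2 at 0.5 h (120 and 469 RPKM) and 1 h (207 and 1050). In the libraries labelled *Rel*-/- it was 241 and 203 at 0.5 h and 952 and 603 at 1 h. WT replicate 1 differed in another way: the ribosomal RNA precursor gene *Rn45s* took 11.04 to 17.89% of its reads on genes across the 5 time points, against at most 6% elsewhere. Some results are also given with depth taken from genes other than *Rn45s*. The cause of these features was not tested.

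The macrophage identity of the cells was read from marker genes. The 10 macrophage markers in the table summed to between 60.1 and 214 RPKM with a median of 90.4. By mean over the 20 libraries *Cd14* led (19.7 RPKM, range 4.24 to 83). At 0 h *Lyz2* (means of 40 RPKM in WT and 22.6 in the libraries labelled *Rel*-/-) and *Csf1r* (32.2 and 16.5) were above *Cd14* (7.37 and 5.88). *Cd14* rose at 0.5 h, whereas of 9 macrophage markers tested 4 fell and 1, *Spi1*, rose at 2 h in WT (38.8% of all genes passed then), or 3 and 1 without WT 0 h replicate 2. *Csf1r* read 18.5 and 45.8 RPKM at 0 h and 3.5 and 3.31 at 2 h (-3.06, limma adjusted p = 9.61e-05), and *Lyz2* 13.4 and 66.5 and then 4.27 and 3.42 (-2.93, adjusted p = 0.00606). These falls were -2.4 (adjusted p = 0.000734) and -1.78 (adjusted p = 0.0686) without WT 0 h replicate 2. The list median at 2 h was 0.26 in WT and 0.45 in the libraries labelled *Rel*-/-, against -0.51 and -0.61 over all genes. In the latter libraries *Csf1r* passed as higher at 0.5 h, at 44.3 and 46.2 RPKM from 18.1 and 14.8 at 0 h. All 6 natural killer markers and all 5 mast cell and basophil markers stayed below 0.1 RPKM in every library, as did 4 of 5 B cell, 4 of 5 stromal, 4 of 8 neutrophil and 2 of 6 dendritic cell markers. The highest sums were 0.051 RPKM for natural killer, 0.0747 for mast cell, 0.208 for B cell, 0.233 for stromal, 0.681 for dendritic cell and 1.47 for neutrophil markers. The last was in WT replicate 2 at 0 h. The 7 T cell markers also reached their highest sum there, 7.27 RPKM, of which *Cd28* made up 6.94. *Cd3e*, *Cd3g*, *Cd3d* and *Cd8a* stayed below 0.1 in every library. *Cd28* was not particular to that library: at 0 h it read 1.63 RPKM in WT replicate 1, and 4.49 and 4.07 in the libraries labelled *Rel*-/-. In bulk RNA, fewer cells of a type and less RNA per cell cannot be told apart.

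Differences were tested with limma on log2(RPKM + 0.1) over the 7951 genes with a mean of at least 0.5 RPKM, which 8 of the 9 genes reached; *Stat4* did not and is described apart. Adjusted p-values (Benjamini-Hochberg) cover all 7951 genes, and a gene passed below 0.05. Fold changes on this scale understate those of weakly transcribed genes. *Socs1*, *Socs3* and *Cish* averaged below 0.5 RPKM at 0 h in both genotypes and reached that mean through stimulated libraries, so the filter favored genes that rise, and counts below describe the genes tested only. The median over all genes moved after lipid A, by -0.71, -0.62, -0.51 and -0.50 on the log2 scale at 0.5, 1, 2 and 6 h in WT and by -0.73, -0.60, -0.61 and -0.64 in the libraries labelled *Rel*-/-. Among genes that passed in WT, 16.5, 19.4, 28 and 26.1% were higher, but 48.4, 48.7, 51.6 and 56.3% once each library was rescaled by its median ratio. These shares were 16.2, 21, 26.6 and 22% in the libraries labelled *Rel*-/-, and 51.1, 52.4, 53.6 and 55.4% after rescaling. Changes of the STAT and SOCS genes are therefore also given relative to the median of all genes where that mattered.

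In WT, 2 of the 8 genes rose and 1 fell at 0.5 h, where 43.1% of all genes passed. At 1 h 3 rose and 0 fell, against 41.7% of all genes; at 2 h 6 rose and 1 fell, against 38.8%; and at 6 h 4 rose and 1 fell, against 28.9%. With both directions pooled, the share that passed was near that of all genes at 0.5 and 1 h, and above it at 2 and 6 h. The directions differed: over all genes 567 rose and 2860 fell at 0.5 h, and 643 and 2674 at 1 h. Under median ratio scaling 1130 rose and 1206 fell at 0.5 h, and 1284 and 1353 at 1 h. In the libraries labelled *Rel*-/-, 2 rose and 1 fell at 0.5 h (42.5% of all genes passed), 4 rose at 1 h (39.7%), 6 rose and 1 fell at 2 h (44%), and 6 rose and 1 fell at 6 h (47.4%). The time points of a genotype share its 0 h libraries, so the counts are not independent of each other. Leaving out a whole time course of the libraries labelled *Rel*-/-, which leaves 1 library in each of its groups, kept 4 of its 21 calls without replicate 1 and 5 without replicate 2. Those kept were *Socs3* at 2 and 6 h, *Cish* and *Stat5a* at 2 h and, without replicate 2, *Socs3* at 1 h. With only the compared groups fitted, 8 of the 18 calls in WT were kept. Results by role follow, feedback inhibitors before STATs.

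*Socs3*, whose product binds gp130-type receptors and the kinases on them, was the strongest responder of the 9. In WT it read 0.182 and 0.792 RPKM at 0 h, 20.7 and 38.4 at 0.5 h, 25.7 and 69.6 at 1 h, 28.3 and 53.2 at 2 h, and 30.5 and 37.4 at 6 h. The libraries labelled *Rel*-/- had 0.0999 and 0.186 at 0 h, 4.25 and 5.87 at 0.5 h, 24.2 and 18.1 at 1 h, 53.1 and 32.1 at 2 h, and 60.8 and 28.8 at 6 h. No stimulated library overlapped an unstimulated one. The ratio of means to 0 h was 60.8 at 0.5 h and 97.8 at 1 h in WT, then 83.7 and 69.6. In the libraries labelled *Rel*-/- it grew from 35.5 at 0.5 h through 148 and 299 to 314 at 6 h, against a baseline of only 9 and 25 reads. From 2 to 6 h the ratio rose in replicate 1 of these (532 to 608) and fell in replicate 2 (173 to 155). On the log2 scale *Socs3* rose by 5.82 ± 0.62 (SE, 2 replicates a group, adjusted p = 3.53e-05) at 0.5 h and 6.40 (adjusted p = 1.71e-05) at 1 h in WT. The rise was 4.41 (adjusted p = 0.00022) and 6.46 (adjusted p = 2.75e-05) in the libraries labelled *Rel*-/-. It passed at all 4 times in both. With only the compared groups fitted, the WT rise at 0.5 h had an adjusted p of 0.0512. Leaving out a whole time course of the libraries labelled *Rel*-/- ended its call at 0.5 h (4.39, adjusted p = 0.0595, without replicate 1; 4.44, adjusted p = 0.112, without replicate 2) and, without replicate 1, at 1 h (5.99, adjusted p = 0.0587). A pseudocount of 1 RPKM lowered the rise at 0.5 h to 4.33 in WT and 2.39 in the libraries labelled *Rel*-/-, which still passed. Without WT 0 h replicate 2 the WT values were 6.65, 7.23, 7.11 and 6.91 at 0.5, 1, 2 and 6 h, and without replicate 1 they were 4.99, 5.57, 5.45 and 5.25. Without WT 1 h replicate 1 or replicate 2 the 1 h value was 7.12 or 5.68. These values without a single library all passed.

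*Cish*, a target of STAT5 whose product limits signalling by it, gave a pulse. In WT it read 0.0709 and 0.244 RPKM at 0 h, 0.577 and 0.621 at 0.5 h, 2.11 and 6.63 at 1 h, 8.2 and 9.06 at 2 h, and 0.232 and 0.249 at 6 h. Values in the libraries labelled *Rel*-/- were 0.101 and 0.0676 at 0 h, 0.452 and 0.284 at 0.5 h, 2.64 and 2.03 at 1 h, 8.8 and 4.81 at 2 h, and 0.451 and 0.288 at 6 h. The 2 h libraries were the highest in both genotypes. At 6 h the WT libraries lay close to the higher of the 0 h replicates, and the libraries labelled *Rel*-/- lay above both of theirs. The ratio of means to 0 h at 2 h was 54.9 in WT and 80.8 in the libraries labelled *Rel*-/-. The log2 rise at 1 and 2 h was 3.99 (adjusted p = 5.45e-05) and 5.17 ± 0.47 (SE, adjusted p = 1.04e-05) in WT, and 3.72 (adjusted p = 0.000127) and 5.17 (adjusted p = 7.12e-06) in the libraries labelled *Rel*-/-. The WT values were 4.49 and 5.67 without WT 0 h replicate 2. At 6 h the change was 0.49 (95% interval -0.52 to 1.5, adjusted p = 0.412) in WT and 1.33 (adjusted p = 0.0334) in the libraries labelled *Rel*-/-. The difference between these was not past the threshold either (adjusted p = 1). Without WT 0 h replicate 2 the WT change at 6 h was 1.0 (adjusted p = 0.186).

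Changes of *Cish* other than those at 2 h depended on the libraries and settings used. The 1 h call in the libraries labelled *Rel*-/- ended without either whole time course (3.67, adjusted p = 0.0631; 3.77, adjusted p = 0.0778), and that in WT with only the compared groups fitted (adjusted p = 0.0541). The WT rise at 0.5 h, 1.53 (adjusted p = 0.0183), became 1.02 (adjusted p = 0.159) without WT 0 h replicate 1 and 1.48 (adjusted p = 0.0843) without WT 0.5 h replicate 2, while without WT 0 h replicate 2 it was 2.03 (adjusted p = 0.0154). At 1 h it was 4.80 without WT 1 h replicate 1 and 3.19 without replicate 2, and passed both times. In the libraries labelled *Rel*-/-, the rise of 1.33 at 0.5 h (adjusted p = 0.0359) ended with any of its 4 libraries left out, at 1.46, 1.06, 1.2 and 1.59 (adjusted p from 0.0722 to 0.168), as did that at 6 h, at 1.46, 1.08, 1.2 and 1.59 (adjusted p from 0.0634 to 0.17). With a pseudocount of 1 RPKM none of the changes at 0.5 and 6 h passed: they were 0.47 (adjusted p = 0.25) at 0.5 h in WT, and 0.33 (adjusted p = 0.414) and 0.33 (adjusted p = 0.391) at 0.5 and 6 h in the libraries labelled *Rel*-/-. With no filter on low levels the latter also missed it (adjusted p = 0.0629 and 0.0532). With a block for each time course all 3 passed (adjusted p = 0.00193 in WT, and 0.00464 and 0.00419), as they did under median ratio scaling (2.03, 1.68 and 1.61) and quantile normalization (1.97, 1.56 and 1.4).

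*Socs1*, whose product inhibits the Janus kinases at interferon receptors, started later than *Socs3*. In WT it read 0.11 and 0.288 RPKM at 0 h, 0.074 and 0.253 at 0.5 h, 0.169 and 2.22 at 1 h, 5.34 and 8.33 at 2 h, and 2.63 and 2.93 at 6 h. For the libraries labelled *Rel*-/-, the values were 0.147 and 0.0986 at 0 h, 0.113 and 0.139 at 0.5 h, 1.5 and 0.75 at 1 h, 12.5 and 6.67 at 2 h, and 8.53 and 2.6 at 6 h. At 0 and 0.5 h these were 3 to 18 reads over a gene of 1.73 kb, a level near the limit of the depth. At 2 h every library was far above both 0 h libraries of its genotype, with a ratio of means of 34.3 in WT and 77.8 in the libraries labelled *Rel*-/-. The log2 rise at 2 h was 4.57 ± 0.81 (SE, adjusted p = 0.000887) and 5.38 (adjusted p = 0.000265), and at 6 h 3.34 (adjusted p = 0.00996) and 4.44 (adjusted p = 0.00132). The WT rise at 2 h was 5.01 (adjusted p = 0.00389) without WT 0 h replicate 2. At 0.5 h the changes were -0.20 (adjusted p = 0.859) and 0.03 (adjusted p = 0.981), the former turning to 0.28 after median ratio scaling.

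The WT replicates of *Socs1* lay far apart at 1 h, and its call there depended on them. The change was 1.47 (adjusted p = 0.162) with both, 3.03 (adjusted p = 0.00351) without WT 1 h replicate 1, and passed with a block for each time course (adjusted p = 0.0415). The 1 h rise in the libraries labelled *Rel*-/-, 2.40 (adjusted p = 0.0323), ended without any of its 4 libraries, at 2.55, 1.94, 2.24 and 2.85 (adjusted p from 0.0682 to 0.151), with a pseudocount of 1 RPKM (0.9, adjusted p = 0.131) and with no filter (adjusted p = 0.0529). The WT rise at 6 h was 2.89 (adjusted p = 0.0679) without WT 0 h replicate 1, 3.26 (adjusted p = 0.0631) without WT 6 h replicate 2, and 3.78 (adjusted p = 0.0248) without WT 0 h replicate 2. The rise at 6 h in the libraries labelled *Rel*-/- was 3.61 and 5.28 without 6 h replicate 1 and replicate 2, and passed both times. Without the whole time course of replicate 1 or 2 it missed the threshold (3.76, adjusted p = 0.172; 5.12, adjusted p = 0.0869), as did the rise at 2 h (5.09, adjusted p = 0.0603; 5.67, adjusted p = 0.0537).

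**Figure D1:**
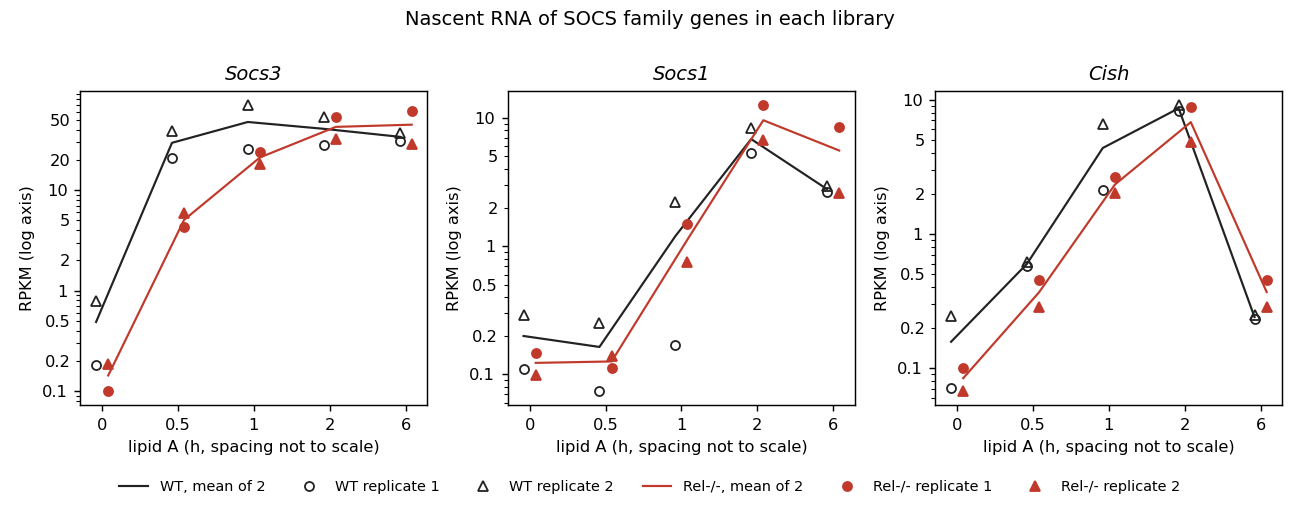
RPKM of *Socs1*, *Socs3* and *Cish* (vertical log axis) in each library against hours of lipid A (horizontal axis), with 1 panel per gene; points are the 2 replicates of WT and of the libraries labelled *Rel*-/-, and lines join the group means. *Socs3* is at 20.7 to 38.4 RPKM in WT and 4.25 to 5.87 in the libraries labelled *Rel*-/- at 0.5 h, *Cish* is highest at 2 h in both genotypes, and *Socs1* starts to climb after 0.5 h.

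*Stat5a*, a STAT activated by GM-CSF and related cytokines, had the lowest adjusted p of a rise among the STAT genes. The WT values were 0.998 and 1.04 RPKM at 0 h, 0.952 and 1.19 at 0.5 h, 10.1 and 13.7 at 1 h, 10.7 and 18.7 at 2 h, and 2.77 and 3.99 at 6 h. The libraries labelled *Rel*-/- had 1.16 and 1.2 at 0 h, 0.849 and 0.824 at 0.5 h, 7.03 and 8.97 at 1 h, 11.9 and 13.8 at 2 h, and 2.26 and 2.78 at 6 h. The 1, 2 and 6 h libraries all lay above the 0 h libraries of their genotype. Its log2 rise was 3.40 ± 0.29 (SE, adjusted p = 9.68e-06) at 1 h, 3.67 (adjusted p = 5.68e-06) at 2 h and 1.62 (adjusted p = 0.002) at 6 h in WT. It was 2.65 (adjusted p = 5.99e-05), 3.33 (adjusted p = 6.41e-06) and 1.02 (adjusted p = 0.0145) in the libraries labelled *Rel*-/-. The WT values became 3.43, 3.7 and 1.64 without WT 0 h replicate 2, and that at 6 h missed the threshold with only the compared groups fitted (adjusted p = 0.0542). The 1 h call in the libraries labelled *Rel*-/- ended without the whole time course of replicate 1 (2.8, adjusted p = 0.063) or replicate 2 (2.5, adjusted p = 0.0868). The 6 h call in the libraries labelled *Rel*-/- ended without 0 h replicate 1 (1.00, adjusted p = 0.0695), 0 h replicate 2 (1.05, adjusted p = 0.0616) or 6 h replicate 2 (0.88, adjusted p = 0.0944). At 0.5 h the WT change was 0.06 (adjusted p = 0.88), but quantile normalization gave 0.90 (adjusted p = 0.0253); in the libraries labelled *Rel*-/- the change of -0.45 (adjusted p = 0.226) turned to 0.26 and 0.55 under median ratio scaling and quantile normalization.

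*Stat5b*, its close paralogue, behaved differently at 0.5 h. WT replicates had 1.3 and 2.03 RPKM at 0 h, 0.513 and 0.498 at 0.5 h, 1 and 1.61 at 1 h, 2.45 and 4.56 at 2 h, and 1.04 and 2.18 at 6 h. Values in the libraries labelled *Rel*-/- were 1.97 and 1.98 at 0 h, 0.68 and 0.602 at 0.5 h, 1.36 and 1.35 at 1 h, 3.99 and 4.74 at 2 h, and 1.74 and 1.88 at 6 h. The 0.5 h libraries were the lowest and the 2 h libraries the highest of each genotype, without overlap with 0 h. It fell by 1.51 ± 0.35 (SE, adjusted p = 0.00428) on the log2 scale in WT and by 1.49 (adjusted p = 0.00502) in the libraries labelled *Rel*-/- at 0.5 h. Relative to the median of all genes these values were -0.80 and -0.76, and under median ratio scaling (-0.84, adjusted p = 0.164; -0.75, adjusted p = 0.219) and quantile normalization (-0.70, adjusted p = 0.177; -0.72, adjusted p = 0.162) the calls were lost. Median ratio scaling with a block for each time course gave both again (adjusted p = 0.00732 and 0.0139). Without WT 0 h replicate 2 the WT value was -1.2 (adjusted p = 0.0465). The rise at 2 h was 1.00 (adjusted p = 0.0397) in WT and 1.10 (adjusted p = 0.0237) in the libraries labelled *Rel*-/-, or 1.51 and 1.71 relative to the median of all genes. In WT it ended without 0 h replicate 1 (0.69, adjusted p = 0.247) or 2 h replicate 2 (0.57, adjusted p = 0.335), was 1.31 (adjusted p = 0.0373) without 0 h replicate 2, and with no filter on low levels had an adjusted p of 0.0599. The rise in the libraries labelled *Rel*-/- ended without any of the 4, at 1.10, 1.22, 1.10 and 0.98 (adjusted p from 0.0541 to 0.133). At 1 and 6 h the WT changes were -0.33 (adjusted p = 0.474) and -0.10 (adjusted p = 0.844), with the sign turned under either scaling, as for the libraries labelled *Rel*-/- (-0.51, adjusted p = 0.258, and -0.12, adjusted p = 0.8).

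*Stat2*, which transmits type I interferon signals, was the most abundant STAT transcript at 6 h. The WT values were 4.69 and 14.3 RPKM at 0 h, 2.43 and 5.98 at 0.5 h, 2.99 and 10.8 at 1 h, 26.8 and 24.8 at 2 h, and 33.8 and 32.9 at 6 h. For the libraries labelled *Rel*-/-, the values were 4.8 and 7.75 at 0 h, 2.53 and 3.15 at 0.5 h, 7.46 and 7.1 at 1 h, 23.4 and 22.6 at 2 h, and 32.5 and 39.1 at 6 h. Libraries at 2 and 6 h lay above every 0 h library, while at 0.5 h both libraries labelled *Rel*-/- lay below theirs. The log2 rise in WT was 1.64 ± 0.59 (SE, adjusted p = 0.0428) at 2 h and 2.01 (adjusted p = 0.0246) at 6 h. It was 1.90 (adjusted p = 0.021) and 2.53 (adjusted p = 0.00531) in the libraries labelled *Rel*-/-. Without WT 0 h replicate 2, the library high in interferon targets, the WT values were 2.44 (adjusted p = 0.0153) and 2.80 (adjusted p = 0.0127), and without replicate 1 they were 0.85 (adjusted p = 0.35) and 1.22 (adjusted p = 0.205). The 2 h call in WT also ended without 2 h replicate 1 (1.59, adjusted p = 0.116) or replicate 2 (1.7, adjusted p = 0.135), under quantile normalization (1.29, adjusted p = 0.111) and with no filter (adjusted p = 0.0701). The 6 h call ended without 6 h replicate 1 (1.99, adjusted p = 0.0775) or replicate 2 (2.03, adjusted p = 0.104). In the libraries labelled *Rel*-/- the 2 h call ended without 0 h replicate 1 (1.56, adjusted p = 0.132), 2 h replicate 1 (1.87, adjusted p = 0.0745) or replicate 2 (1.92, adjusted p = 0.0857). The 6 h call there ended without a whole time course, replicate 1 (2.32, adjusted p = 0.251) or replicate 2 (2.73, adjusted p = 0.2).

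At 0.5 h the *Stat2* change was -1.08 in WT (adjusted p = 0.158) and -1.08 in the libraries labelled *Rel*-/- (adjusted p = 0.155). A block for each time course brought it past the threshold in both (adjusted p = 0.0479 and 0.0469), as did leaving out WT 0 h replicate 1 for WT (-1.87, adjusted p = 0.0387). Without WT 0 h replicate 2 it was -0.29 (adjusted p = 0.743). Relative to the median of all genes it was -0.37 and -0.35. At 1 h the WT change of -0.52 (adjusted p = 0.504) turned to 0.14 under median ratio scaling and to 0.27 without WT 0 h replicate 2.

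*Stat3*, the main STAT of IL-6 and IL-10 signalling, varied widely between the WT replicates. WT replicates had 1.36 and 2.73 RPKM at 0 h, 1.56 and 5.1 at 0.5 h, 0.899 and 9.51 at 1 h, 5.07 and 10.6 at 2 h, and 5.28 and 13.9 at 6 h. The libraries labelled *Rel*-/- had 2 and 1.96 at 0 h, 2.9 and 4.83 at 0.5 h, 2.19 and 2.85 at 1 h, 6.25 and 7.25 at 2 h, and 9.21 and 11 at 6 h. At 2 and 6 h all libraries exceeded both 0 h libraries of their genotype. The log2 change in WT was 1.87 ± 0.85 (SE, adjusted p = 0.0977) at 2 h and 2.09 (adjusted p = 0.0786) at 6 h. It was 1.72 (adjusted p = 0.114) and 2.29 (adjusted p = 0.0416) in the libraries labelled *Rel*-/-. With a block for each time course the 3 changes that missed the threshold passed it, at adjusted p = 0.00321 and 0.00217 in WT and 0.00473 at 2 h in the libraries labelled *Rel*-/-. Quantile normalization also took the WT value at 6 h (2.43, adjusted p = 0.0389) and that of the libraries labelled *Rel*-/- at 2 h (2.2, adjusted p = 0.042) past it. The 6 h call in the libraries labelled *Rel*-/- ended without any of its 4 libraries, at 2.30, 2.42, 2.28 and 2.16 (adjusted p from 0.111 to 0.144), and with no filter (adjusted p = 0.0693). At 1 h the WT change was 0.61 (adjusted p = 0.591), and 2.24 (adjusted p = 0.0214) without WT 1 h replicate 1. Without WT 0 h replicate 2 the values at 2 and 6 h were 2.35 (adjusted p = 0.11) and 2.57 (adjusted p = 0.098).

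*Stat6*, which transmits IL-4 and IL-13 signals, went down. The WT values were 7.35 and 6.31 RPKM at 0 h, 6.91 and 8.21 at 0.5 h, 6.66 and 5.15 at 1 h, 3.3 and 1.42 at 2 h, and 3.26 and 2.12 at 6 h. Values in the libraries labelled *Rel*-/- were 6.36 and 6.11 at 0 h, 8.49 and 8.46 at 0.5 h, 7.34 and 5.62 at 1 h, 2.51 and 1.68 at 2 h, and 2.23 and 2.79 at 6 h. Every library at 2 and 6 h lay below every earlier one. The fall at 2 h was -1.61 ± 0.36 (SE, adjusted p = 0.00405) in WT and -1.56 (adjusted p = 0.00432) in the libraries labelled *Rel*-/-, or -1.10 and -0.95 relative to the median of all genes. It kept its call under median ratio scaling (-1.10, adjusted p = 0.0225; -0.94, adjusted p = 0.0432). At 6 h it was -1.34 (adjusted p = 0.0163) and -1.29 (adjusted p = 0.0128), but -0.84 (adjusted p = 0.0839) and -0.62 (adjusted p = 0.161) under that scaling. Quantile normalization gave -1.43 (adjusted p = 0.0118) and -1.45 (adjusted p = 0.00794) at 6 h. The 2 h calls ended without replicate 2 of that time, in WT (-1.02, adjusted p = 0.0607) and in the libraries labelled *Rel*-/- (-1.28, adjusted p = 0.0551). The 6 h call in WT ended without 0 h replicate 1 (-1.23, adjusted p = 0.0808) or 6 h replicate 2 (-1.04, adjusted p = 0.142), and in the libraries labelled *Rel*-/- without 0 h replicate 1 (-1.26, adjusted p = 0.0628), 0 h replicate 2 (-1.32, adjusted p = 0.0558) or 6 h replicate 1 (-1.13, adjusted p = 0.0852). Without WT 0 h replicate 2 the WT falls were -1.71 (adjusted p = 0.0156) and -1.45 (adjusted p = 0.0427). At 0.5 h both libraries labelled *Rel*-/- were above theirs at 0 h, with a change of 0.44 (adjusted p = 0.341) that passed under median ratio scaling (1.21, adjusted p = 0.0166, or 0.00859 with a block for each time course as well). Quantile normalization gave 0.29 (adjusted p = 0.577). The WT change then was 0.14 (adjusted p = 0.77), or 0.88 (adjusted p = 0.0591) under median ratio scaling and 0.02 (adjusted p = 0.982) under quantile normalization. At 1 h the changes of -0.21 (adjusted p = 0.659) in WT and 0.04 (adjusted p = 0.932) in the libraries labelled *Rel*-/- each changed sign under a scaling, to 0.45 under median ratio scaling and to -0.11 under quantile normalization.

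*Stat4*, the STAT of IL-12 signalling, was scarcely transcribed. It lay between 0.0423 and 0.256 RPKM over 120 kb, or 141 to 1217 reads a library. WT replicates had 0.235 and 0.0766 RPKM at 0 h and between 0.0461 and 0.143 later. For the libraries labelled *Rel*-/-, the values were 0.256 and 0.247 at 0 h, 0.133 and 0.123 at 0.5 h, 0.0423 and 0.0657 at 1 h, 0.063 and 0.0521 at 2 h, and 0.101 and 0.09 at 6 h. In the latter the 0 h libraries were above all others, whereas WT 0 h replicate 2 lay among the stimulated libraries. With no filter on low levels, limma gave a fall of -1.19 (SE 0.30, adjusted p = 0.0106) at 1 h and -1.16 (adjusted p = 0.013) at 2 h in the libraries labelled *Rel*-/-, and -0.49 (adjusted p = 0.305) and -0.37 (adjusted p = 0.459) in WT. A pseudocount of 0.01 RPKM gave -2.05 (adjusted p = 0.0149) and -1.96 (adjusted p = 0.0203) in the libraries labelled *Rel*-/-. The difference in response between the genotypes was not past the threshold at 1 h (-0.70, adjusted p = 0.789) or 2 h (-0.79, adjusted p = 0.999).

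**Figure D2:**
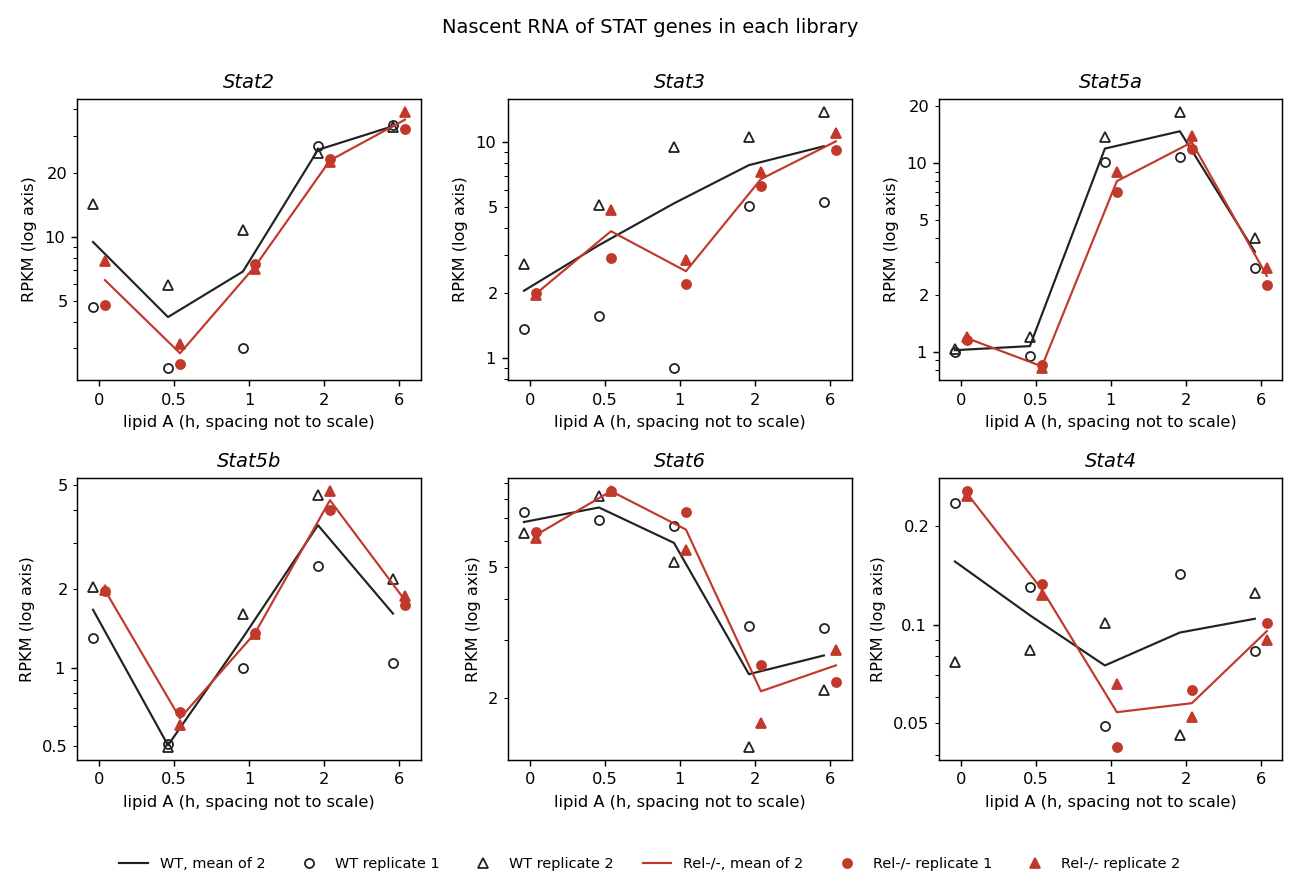
RPKM of the 6 STAT genes (vertical log axis) in each library against hours of lipid A (horizontal axis), with 1 panel per gene; points are the 2 replicates of WT and of the libraries labelled *Rel*-/-, and lines join the group means. *Stat5a* reaches 7.03 to 13.7 RPKM at 1 h, *Stat2* 32.5 to 39.1 RPKM at 6 h, and *Stat6* is lower at 2 and 6 h than before.

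The order of the levels changed with time. By WT mean ± SD over 2 replicates, *Stat2* (9.48 ± 6.77 RPKM) and *Stat6* (6.83 ± 0.74) led at 0 h, ahead of *Stat3* (2.04 ± 0.971), *Stat5b* (1.67 ± 0.523) and *Stat5a* (1.02 ± 0.0294). *Socs3* (0.487 ± 0.431), *Socs1* (0.199 ± 0.126), *Cish* (0.157 ± 0.122) and *Stat4* (0.156 ± 0.112) were last and did not differ beyond their spread, nor did *Stat2* and *Stat6*, *Stat2* and *Stat3*, or *Stat3* and *Stat5b*. At 2 h *Socs3* (40.8 ± 17.6) and *Stat2* (25.8 ± 1.39) led, then *Stat5a* (14.7 ± 5.66), *Cish* (8.63 ± 0.605), *Stat3* (7.83 ± 3.9) and *Socs1* (6.83 ± 2.11), of which the last 3 overlapped. By mean ± SD, *Socs3* also overlapped *Stat2*, and *Stat5a* overlapped *Cish* and *Stat3*. *Stat5b* (3.51 ± 1.49) and *Stat6* (2.36 ± 1.33) followed and overlapped each other, and *Stat5b* also overlapped *Stat3* and *Socs1*. By 6 h *Socs3* (33.9 ± 4.89) and *Stat2* (33.3 ± 0.659) overlapped at the top, with *Stat3* (9.59 ± 6.1) next, which overlapped *Stat5a* (3.38 ± 0.865) and reached the upper end of *Stat6* (2.69 ± 0.809).

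The genotypes were then compared at each time point, the question the study design poses. 0 of the 8 genes passed at 0 h, where 0% of all genes did and 335 had an unadjusted p under 0.05. Likewise 0 of 8 passed at 0.5 h (0.189% of all genes), 1 h (0.994%), 2 h (0.415%) and 6 h (0.0755%). Of these 40 limma tests, 1 had an unadjusted p under 0.05, that of *Socs3* at 0.5 h. limma voom on the recovered reads gave 0 past the threshold and 1 with an unadjusted p under 0.05. For the difference in response to lipid A between the genotypes, 0 of 8 passed at 0.5 h (0.0252% of all genes), 1 h (0.0252%), 2 h (0.0252%) and 6 h (0%). 0 of the 32 tests had an unadjusted p under 0.05 by limma, and voom gave 0 and 0. Over all genes and summed over the time points, that difference passed 6 times, and 41 times with a block for each time course. Summed over the 5 time points, with a gene counted at each time it passed, there were 133 differences between genotypes, and 263 with a replicate block, under which 0 of the STAT and SOCS genes passed. The higher share among genes that passed between genotypes depended on scaling: at 1 h it was 72.2%, against 27.3% after median ratio scaling.

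*Socs3* at 0.5 h was the member with the lowest p between genotypes. The libraries labelled *Rel*-/- read 4.25 and 5.87 RPKM and the WT libraries 20.7 and 38.4, without overlap, and the WT mean was 5.85 times the other. The log2 difference was -2.48 (SE 0.618, 95% interval -3.81 to -1.14, unadjusted p = 0.00149) but missed the threshold over all genes (limma adjusted p = 0.169), under median ratio scaling (-2.67, adjusted p = 0.196), quantile normalization (-2.16, adjusted p = 0.118), voom (-2.51, adjusted p = 0.134) and a replicate block (adjusted p = 0.0913). Leaving out WT time course replicate 1 at all time points took it past the threshold (-2.92, adjusted p = 0.0162), and its adjusted p ranged from 0.0162 to 1 over all alternatives. Levels at 0 h also leaned the same way (-1.07, adjusted p = 0.999, or -0.24 without WT 0 h replicate 2), and the difference in response at 0.5 h was -1.41 (95% interval -3.29 to 0.48, adjusted p = 1), or -2.24 (adjusted p = 1) without WT 0 h replicate 2. At 1 h the genotypes again did not overlap, with a difference of -1.01 (95% interval -2.35 to 0.32, adjusted p = 0.562). By 2 and 6 h they did, with differences of 0.09 (95% interval -1.24 to 1.43, -0.03 under median ratio scaling) and 0.31 (95% interval -1.02 to 1.65).

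The other inhibitors and the STAT genes gave smaller differences between genotypes. *Cish* was lower in the libraries labelled *Rel*-/- at 0.5 h without overlap (-0.60, 95% interval -1.61 to 0.41, adjusted p = 0.811) and higher at 6 h without overlap (0.44, 95% interval -0.57 to 1.45, adjusted p = 0.95). For *Socs1*, replicates overlapped throughout, and the intervals were wide, from -1 to 2.49 at 6 h. *Stat5a* lay lower without overlap at 0.5 h (-0.32, 95% interval -0.95 to 0.32) and 1 h (-0.56, 95% interval -1.19 to 0.08, adjusted p = 0.478), and higher at 0 h (0.20, 95% interval -0.44 to 0.83, -0.02 under median ratio scaling). *Stat2* at 2 h (-0.17, 95% interval -1.44 to 1.11), *Stat5b* at 0.5 h (0.29, 95% interval -0.47 to 1.05), *Stat6* at 0.5 h (0.17, 95% interval -0.61 to 0.95, -0.02 under median ratio scaling) and *Stat4* at 0 h were the other cases without overlap. With 2 replicates a group, these intervals leave room for differences of up to several fold. Absence of a call thus does not show that the genotypes were alike. Absence of overlap between 2 and 2 libraries is likewise common where groups do not differ. Its share over all genes was not counted, so these cases are no evidence of a difference.

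The remaining pathway was described with lists of genes, whose counts stand beside those of all genes. The share of all genes past the threshold in either direction at 0.5, 1, 2 and 6 h was 43.1%, 41.7%, 38.8% and 28.9% in WT. It was 42.5%, 39.7%, 44% and 47.4% in the libraries labelled *Rel*-/-. Of 5 other STAT and SOCS genes tested, in WT 0 rose and 1 fell at 0.5 h, 1 and 1 at 1 h, 1 and 2 at 2 h, and 0 and 2 at 6 h, with a median of -0.03 at 2 h against -0.51 over all genes. The counts became 0 and 1 at 1 h, 2 and 2 at 2 h, and 1 and 2 at 6 h without WT 0 h replicate 2; *Socs7* then missed the threshold at 1 h (1.28, adjusted p = 0.0657). *Socs7* read 0.958 and 0.994 RPKM at 0 h and 4.4 and 4.85 at 2 h in WT, a rise of 2.13 (adjusted p = 0.00102). *Socs6* went the other way, from 1.48 and 4.53 to 0.405 and 0.294 RPKM at 0.5 h (-2.60, adjusted p = 0.000296). *Socs5* fell at 2 h (-1.32, adjusted p = 0.00238), from 2.59 and 2.08 to 1 and 0.756 RPKM. These WT changes were 2.16, -1.82 and -1.47 without WT 0 h replicate 2, and all passed. Of the 4 Janus kinase genes, 2 rose and 0 fell at 2 h in WT and 3 rose in the libraries labelled *Rel*-/- (list medians 1.03 and 1.19). *Jak2* read 0.617 and 1.33 RPKM at 0 h and 7.98 and 31.5 at 1 h in WT, and 0.65 and 0.926 and then 20 and 23.3 in the libraries labelled *Rel*-/-. Its WT rise at 1 h was 3.98 (adjusted p = 0.000324), and *Tyk2* rose by 1.47 (adjusted p = 0.00509) at 6 h. *Jak3* passed as lower at 1 h in WT (-0.97, adjusted p = 0.0498) but not under median ratio scaling (-0.35, adjusted p = 0.586) or without WT 0 h replicate 2 (-0.56, adjusted p = 0.321). The latter gave 4.48 for *Jak2* at 1 h and 1.84 for *Tyk2* at 6 h.

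Among 18 cytokine receptor chains tested, 2 rose and 4 fell at 2 h in WT and 6 and 4 in the libraries labelled *Rel*-/-, with medians of 0.11 and 0.31. Over all genes, 38.8% and 44% passed then, and 28.9% at 6 h in WT. *Il6ra*, the IL-6 binding chain, went from 1.91 and 6.12 RPKM at 0 h to 0.0885 and 0.115 at 2 h in WT (-4.13, adjusted p = 2.81e-05), and *Il21r* from 1.29 and 2.89 to 0.14 and 0.209 at 0.5 h (-2.91, adjusted p = 0.000419). *Il15ra*, which presents IL-15, rose from 0.365 and 1.27 to 5.75 and 10.5 RPKM at 2 h (3.31, adjusted p = 0.00107). These were -3.32, -2.35 and 4.08 without WT 0 h replicate 2. The WT count at 2 h was 4 higher and 3 lower without it. At 6 h 2 chains rose and 3 fell in WT, but 4 rose and 0 fell under median ratio scaling, and 5 and 0 without WT 0 h replicate 2. Of the 11 other inhibitors, 2 rose and 2 fell at 2 h in WT (38.8% of all genes passed) and 2 and 3 in the libraries labelled *Rel*-/- (44%). The WT count was 2 and 1 without WT 0 h replicate 2. *Pias3* read 2.06 and 1.32 RPKM at 0 h and 0.384 and 0.173 at 0.5 h (-2.27, adjusted p = 0.000566), and *Sh2b3* 7.31 and 4.9 at 0 h and 1.42 and 0.718 at 2 h (-2.45, adjusted p = 0.000496). *Usp18*, an inhibitor of interferon receptor signalling, read 0.73 and 4.42 RPKM at 0 h and 19.3 and 20.9 at 2 h, a rise of 3.38 (adjusted p = 0.031), or 4.6 (adjusted p = 0.0212) without WT 0 h replicate 2. *Pias3* and *Sh2b3* gave -2.57 and -2.73 without it.

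Of 17 cytokines that signal through STATs, 9 were tested. Several of these, such as *Ifnb1*, *Il12b* and *Clcf1*, reached the mean for testing through stimulated libraries alone, so the filter favored a count of risers. Of the 9, 7 rose at 0.5 h, 6 at 1 h, 7 at 2 h and 4 at 6 h in WT, and 3, 7, 6 and 4 in the libraries labelled *Rel*-/-; *Osm* alone fell, at 2 h in WT, and not under either scaling. The WT counts became 6, 7, 6 and 4 without WT 0 h replicate 2. Over all genes, 43.1%, 41.7%, 38.8% and 28.9% passed in either direction in WT. The shares were 42.5%, 39.7%, 44% and 47.4% in the libraries labelled *Rel*-/-. The list median at 1 h was 4.11 in WT and 3.29 in the libraries labelled *Rel*-/-, against -0.62 and -0.6 over all genes. *Ifnb1* read 0.0705 and 0.0718 RPKM at 0 h and 11.4 and 12.4 at 1 h in WT (6.13, adjusted p = 0.000197), and 25.2 and 8.15 at 1 h in the libraries labelled *Rel*-/-. *Il27* read 0.227 and 1.05 RPKM at 0 h and 79.4 and 104 at 2 h in WT (7.21, adjusted p = 5.97e-06; 8.12 without WT 0 h replicate 2), and 46.1 and 41 at 2 h in the libraries labelled *Rel*-/-. *Il12b* read 27.5 and 16.9 RPKM at 1 h in WT and 1.33 and 0.721 in the libraries labelled *Rel*-/-, a difference of -4.32 (adjusted p = 0.0555). At 2 h the genotypes differed by -4.73 (adjusted p = 0.0596), which passed under quantile normalization (-4.92, adjusted p = 0.0359) but not median ratio scaling (-4.82, adjusted p = 0.053). *Clcf1*, a ligand of the gp130 family that signals through STAT3, was the 1 gene of all pathway lists that passed between genotypes. It read 3.23 and 3.03 RPKM at 0.5 h in WT and 0.0573 and 0.0606 in the libraries labelled *Rel*-/-, with log2 differences of -4.34 (adjusted p = 0.000181) at 0.5 h, -3.81 (adjusted p = 0.000853) at 1 h and -3.44 (adjusted p = 0.000831) at 2 h. It reached the mean for testing through stimulated WT libraries only, so the filter favored this difference, which also passed with no filter (adjusted p = 0.000251, 0.000355 and 0.000713). It missed the threshold with only the compared groups fitted (adjusted p = 0.246, 0.863 and 0.354) and without a whole time course of the libraries labelled *Rel*-/- (adjusted p from 0.271 to 0.716).

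Genes known as STAT targets were counted in the same way. Of 22 interferon-STAT targets, 3, 9, 19 and 13 rose at 0.5, 1, 2 and 6 h in WT and 4, 11, 21 and 20 in the libraries labelled *Rel*-/-, and 0 fell in any; the 2 h medians were 4.57 and 5.83. Over all genes, 43.1%, 41.7%, 38.8% and 28.9% passed in either direction in WT. In the libraries labelled *Rel*-/- 42.5%, 39.7%, 44% and 47.4% did. Most of these fell: of 7951 genes, 567 rose and 2860 fell at 0.5 h in WT, and 643 and 2674 at 1 h. The libraries labelled *Rel*-/- had 547 and 2835, and 661 and 2494. This split depended on scaling, with 1130 higher and 1206 lower at 0.5 h in WT under median ratio scaling. The WT counts became 7, 10, 22 and 16 without WT 0 h replicate 2. The summed level of the list at 2 h was 1270 and 1990 RPKM in WT and 2140 and 1860 in the libraries labelled *Rel*-/-. *Cxcl10* read 0.41 and 7.94 RPKM at 0 h and 160 and 197 at 2 h in WT (6.45, adjusted p = 0.000708), *Gbp5* 0.0961 and 2.66 and then 61.8 and 109 (6.8, adjusted p = 0.000474), and *Cxcl9* 0.00402 and 0.0614 and then 4.56 and 20.6 (6.24, adjusted p = 0.0013). For these 3 genes the higher 0 h value was that of WT replicate 2, and without it they rose by 8.44, 8.71 and 6.56. Of 11 STAT3 targets, 5 rose and 1 fell at 2 h in WT (4 and 1 without WT 0 h replicate 2) and 8 and 1 in the libraries labelled *Rel*-/-. *Il1rn* read 0.104 and 0.153 RPKM at 0 h and 9.6 and 12.5 at 6 h in WT (5.60, adjusted p = 0.000675) and 30.7 and 28.2 at 6 h in the libraries labelled *Rel*-/-. *Pim1* and *Junb* rose at 0.5 h (3.43, adjusted p = 0.000365, and 3.12, adjusted p = 0.000627), with *Pim1* going from 1.44 and 5.24 to 21.4 and 44.3 RPKM. The rises of *Il1rn*, *Pim1* and *Junb* were 5.76, 4.32 and 3.12 without WT 0 h replicate 2. Of 5 STAT5 targets, which include *Cish*, 3 rose and 0 fell at 1 h in WT, *Cish* and *Pim1* among them, and *Bcl2l1* (1.52, adjusted p = 0.0457), which missed the threshold under quantile normalization (1.31, adjusted p = 0.154) and without WT 0 h replicate 2 (0.76, adjusted p = 0.35). Of the STAT6 targets only 2 were tested, and 0 rose. *Pparg* fell at 2 h in WT from 0.928 and 2.22 at 0 h to 0.0593 and 0.219 RPKM (-2.78, adjusted p = 0.00113; -2.19, adjusted p = 0.0162 without WT 0 h replicate 2). *Mrc1* fell at 6 h from 2.67 and 7.12 to 0.156 and 0.877 RPKM (-3.16, adjusted p = 0.0147; -2.67, adjusted p = 0.0519 under median ratio scaling; -2.47, adjusted p = 0.0958 without WT 0 h replicate 2). In every list other than the cytokines, 0 genes passed between genotypes at any time point, also under both scalings.

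The genes most like each member over the 10 group means of log2(RPKM + 0.1) were found among the 7951 tested, with Pearson's r as a description. *Socs3* was most like *Mir155* (0.988) and its host gene *Mir155hg* (0.987), then *C3* (0.976). *Socs1* was most like *AW112010* (0.993), *Marchf5* (0.992, identified by its RefSeq record) and *Trim30a* (0.986), and *Cish* like *Rnd1* (0.973), *Phxr4* (0.962) and *Chd1* (0.96). For the STAT genes, those among the closest were *Dusp28* (0.987) and *Gm16675* (0.987) for *Stat2*, *Plekha4* (0.947), *Edn1* (0.946) and *Helz2* (0.941) for *Stat3*, and *Fcho1* (0.944), *Ocrl* (0.939) and *Dele1* (0.936) for *Stat4*. *Stat5a* was most like *Rnf115* (0.98), *Stau1* (0.973) and *Pigv* (0.96), *Stat5b* like *Mrpl13* (0.988), *Ttc9c* (0.986) and *Mgat1* (0.985), and *Stat6* like *Inpp5a* (0.989), *Atg7* (0.985) and *Herpud1* (0.983). Among the 9 themselves, *Cish* and *Stat5a* had r = 0.9, *Socs1* and *Stat2* 0.87, and *Stat6* ran opposite to *Stat2* (-0.94) and *Socs1* (-0.93). All of these points share libraries.

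Several members lie beside each other. On mm9, *Stat5b* (chr11:100642045-100683884, minus strand), *Stat5a* (chr11:100720665-100746483, plus strand) and *Stat3* (chr11:100748120-100800854, minus strand) follow on chromosome 11. *Stat5a* and *Stat3* point toward each other with 1.64 kb between their annotated ends. The span given for *Stat5b* covers part of the gene, since the Gencode annotation in the same table extends it to 100712038, and that annotation lets *Stat3* reach to 100746412, within *Stat5a*. Whether reads were assigned by strand is not given in the sources used here, so reads from *Stat5a* and *Stat3* near their ends cannot be told apart. Their patterns differed, as *Stat5a* had fallen back at 6 h (3.38 RPKM in WT) and *Stat3* had its highest mean then (9.59).

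Other neighbours within 20 kb were described by their means. *Stat6* (chr10:127080042-127098043, plus strand) overlaps the end of *Nab2* (chr10:127097974-127103759) on the minus strand, which had WT means of 1.97, 1.91, 2.44, 0.842 and 2.76 RPKM at 0, 0.5, 1, 2 and 6 h. *Pgs1*, 17.5 kb from *Socs3* (chr11:117827401-117830680, minus strand), had WT means of 4.96, 7.22, 19.3, 25.9 and 19.3 RPKM, against 3.99, 3.68, 9.73, 28.3 and 18.2 in the libraries labelled *Rel*-/-. *Mapkapk3*, 7.26 kb from *Cish* (chr9:107198990-107205115, plus strand), had its highest WT mean at 1 h (5.28 RPKM). Beside *Stat2* (chr10:127707554-127729909, plus strand), *Il23a* 3.29 kb away on the other strand averaged 1 RPKM in WT at 0.5 h and 0.127 in the libraries labelled *Rel*-/-, below the level tested. *Pan2* and *Timeless*, 10.5 and 17.6 kb away, stayed at or below 2.34 RPKM. The neighbours of *Socs1* (chr16:10783902-10785629, minus strand), the protamine genes *Prm1*, *Prm2* and *Prm3* and *Tnp2*, lay at or below 0.888 RPKM. For *Stat5b*, *Ghdc* at 9.77 kb lay at or below 0.924 RPKM and *Hcrt* at or below 0.311.

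**Figure D3:**
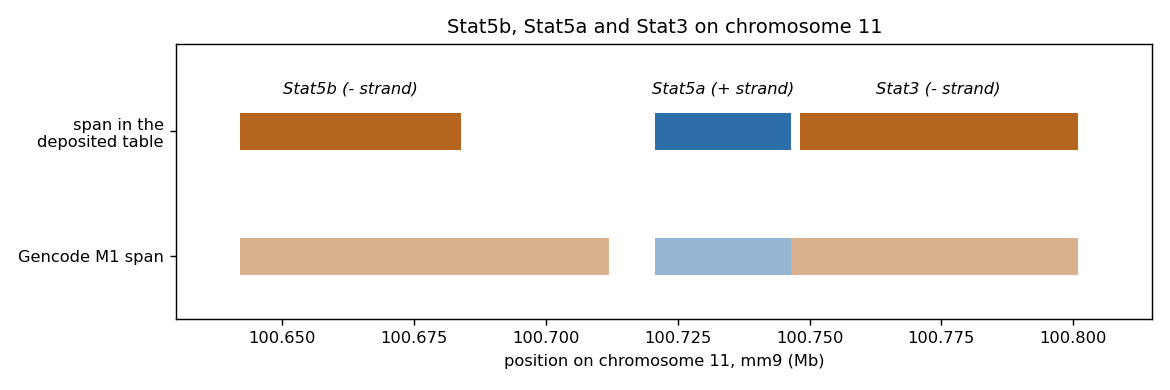
Map of the *Stat5b*, *Stat5a* and *Stat3* genes on chromosome 11 (horizontal axis, mm9 position in Mb). Bars show the span of each gene in the table (upper line) and in the Gencode annotation (lower line), colored by strand. *Stat5a* and *Stat3* face each other 1.64 kb apart in the upper line, and the lower line extends *Stat5b* and closes that gap.

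All 9 genes matched the RefSeq promoters of GRCm38.p6, 300 bases each from 250 before to 50 after a transcript start, with 12 promoters in all. 3 motifs were searched on both strands: the STAT dimer motif TTCNNNGAA, which 8.3% of the 32851 promoters in the table hold; the interferon-response motif AAANNGAAA (TTTCNNTTT reversed), held by 10.6%; and the NF-κB consensus, held by 8.46%. The promoters of the 3 inhibitor genes, which rose strongly, and of *Stat2* are printed, as 4 of the windows that hold a match. Capitals mark STAT dimer motifs in *Cish* (chr9:107296409-107296708, plus strand), 2 matches at bases 251 and 262, and in *Socs3* (chr11:117969317-117969616, minus strand), 1 at base 97. In *Socs1* (chr16:10785487-10785786, minus strand) and *Stat2* (chr10:128270248-128270547, plus strand) capitals mark the interferon-response motif, with 2 overlapping matches at bases 169 and 175 and 1 reversed match at base 29. A match describes the letters only.
Cish: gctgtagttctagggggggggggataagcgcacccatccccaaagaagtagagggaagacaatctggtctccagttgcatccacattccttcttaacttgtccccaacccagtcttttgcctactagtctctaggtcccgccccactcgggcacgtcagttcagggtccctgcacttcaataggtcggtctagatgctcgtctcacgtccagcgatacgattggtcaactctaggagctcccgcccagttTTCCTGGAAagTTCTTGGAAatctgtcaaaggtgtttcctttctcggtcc
Socs3: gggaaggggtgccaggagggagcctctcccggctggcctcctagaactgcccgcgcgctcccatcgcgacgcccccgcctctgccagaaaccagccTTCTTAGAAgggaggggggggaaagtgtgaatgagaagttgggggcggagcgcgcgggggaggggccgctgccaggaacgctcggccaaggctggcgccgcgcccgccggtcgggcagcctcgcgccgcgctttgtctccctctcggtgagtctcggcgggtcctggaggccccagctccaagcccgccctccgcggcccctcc
Socs1: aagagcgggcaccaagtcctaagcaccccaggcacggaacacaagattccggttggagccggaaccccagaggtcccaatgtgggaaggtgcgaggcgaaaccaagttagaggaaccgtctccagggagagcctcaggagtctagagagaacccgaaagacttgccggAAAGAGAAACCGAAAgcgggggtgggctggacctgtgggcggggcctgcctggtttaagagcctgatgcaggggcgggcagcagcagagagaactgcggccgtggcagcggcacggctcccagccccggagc
Stat2: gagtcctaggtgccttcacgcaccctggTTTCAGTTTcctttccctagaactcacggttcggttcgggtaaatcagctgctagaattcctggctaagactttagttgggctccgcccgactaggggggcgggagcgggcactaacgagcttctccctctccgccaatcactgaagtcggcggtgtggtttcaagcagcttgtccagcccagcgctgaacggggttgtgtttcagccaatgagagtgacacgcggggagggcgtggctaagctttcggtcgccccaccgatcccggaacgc

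The other windows held at most 1 match each. The second promoters of *Stat4* (chr1:52007990-52008289, plus strand) and *Stat5b* (chr11:100822521-100822820, minus strand) each held 1 interferon-response motif, at bases 155 and 190, and that of *Stat5a* (chr11:100860234-100860533, plus strand) 1 NF-κB match at base 17. No match to the 3 motifs lay in the windows of *Stat3*, *Stat6* or the first promoters of *Stat4*, *Stat5a* and *Stat5b*, which says only that these letters are not in those 300 bases.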

How the data were processed

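The values are the RPKM over whole genes that the authors deposited, made from reads aligned to mm9 with HISAT2, SAMtools and SeqMonk; whether reads were assigned by strand is not given. The reads behind each value were recovered from RPKM, length and depth, and served for voom only. Tests used limma 3.58.1 in R 4.3.3 (lmFit and eBayes with a trend) on log2(RPKM + 0.1), with 10 group means fitted to 20 libraries, for the 7951 genes with a mean of at least 0.5 RPKM; tables and figures used Python 3.11.15, pandas 2.3.3, numpy 2.4.6 and matplotlib 3.10.9. With 2 replicates a group, a p-value speaks to the spread between these replicates and not to other mice or laboratories.

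The 9 genes and the pathway lists were chosen by name with earlier results of these data known. The lists were other STAT and SOCS genes, Janus kinases, cytokine receptor chains, cytokines that signal through STATs, other inhibitors, interferon-STAT targets, STAT3, STAT5 and STAT6 targets, and markers of 8 cell types. Genes named from a list were the up to 3 with the largest change over time that passed in WT, and any that passed between genotypes; these, like the genes found by likeness or position, were named after their values were seen. *Rel* was added to check the genotype. Some results on other genes are not reported here.

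Residuals of replicates with the same number were correlated to see what the numbers pair. The article says that WT and mutant cells were handled side by side, while the labels do not say that equal numbers mark this. Between genotypes r was 0.02, 0.47, 0.35, 0.38 and 0.21 at 0, 0.5, 1, 2 and 6 h, near 0 at 0 h and positive at the others. Whether the numbers pair genotypes is thus not settled, and the replicate block was kept as an alternative. Within a genotype the same number was taken as 1 time course, and a block for it was an alternative for changes over time. Between time points of a genotype r ran from 0.41 to 0.77 in WT and from 0.13 to 0.59 in the libraries labelled *Rel*-/-. The main fit did not use this pairing. Other alternatives rescaled libraries by median ratio or quantile normalization, changed the pseudocount or filter, used voom, or left out libraries. *Rn45s*-corrected depth, no filter with a pseudocount of 0.01 RPKM, and median ratio scaling with the time course block were added after the data had been seen. When 1 library of a group was left out, the other was taken to vary like the rest.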

Additional observations from a re-analysis of the deposited data

Results flagged for a closer look

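*Clcf1* was the gene of the pathway lists whose response to lipid A passed for a difference between genotypes, in some fits. The difference in log2 change was -4.22 at 0.5 h (limma adjusted p = 0.0142), where WT rose by 4.41 (adjusted p = 7.89e-06), and -3.68 at 1 h (adjusted p = 0.0469), where WT rose by 4.26 (adjusted p = 9.68e-06). In WT it read 0.0439 and 0.0596 RPKM at 0 h, 3.23 and 3.03 at 0.5 h, and 2.9 and 2.71 at 1 h; in the libraries labelled *Rel*-/- it read 0.0353 and 0.042 RPKM at 0 h, 0.0573 and 0.0606 at 0.5 h, and 0.0831 and 0.133 at 1 h. At 2 h the difference was -3.31 (adjusted p = 0.0605). With no filter it passed at 0.5, 1 and 2 h (adjusted p = 0.0251, 0.0144 and 0.0188). The 2 h difference also passed with a replicate block (adjusted p = 0.0358), a block for each time course (adjusted p = 0.0172), quantile normalization (-3.49, adjusted p = 0.0216) and voom (-4.50, adjusted p = 0.0255), but not median ratio scaling (-3.38, adjusted p = 0.0864) or with only the compared groups fitted (adjusted p = 1). The 0.5 h call ended with a pseudocount of 0.01 RPKM (-5.17, adjusted p = 0.112), with WT above 3 RPKM (adjusted p = 0.137) and without any 1 of 6 libraries (adjusted p from 0.0628 to 0.126), while its value stayed between -4.17 and -4.26 without them. The 1 h call ended without any 1 of its 8 libraries (-3.51 to -3.86, adjusted p from 0.0839 to 0.284), with that pseudocount (adjusted p = 0.178), with WT above 3 RPKM (adjusted p = 0.194), with only the compared groups fitted (adjusted p = 0.361) and with depth taken from genes other than *Rn45s* (adjusted p = 0.0538). Without a whole time course of the libraries labelled *Rel*-/- the adjusted p was 1 at both times.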

How the results depend on the processing

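Over 38 alternatives, 11 of the 39 changes of the STAT and SOCS genes that passed (limma, 136 tests) passed under every one, and 0 reversed. Of the 97 others, 18 passed under some alternative and 66 changed sign under some. Between genotypes 0 of the 8 genes passed, and 0 to 5 with libraries left out. The 5 came without WT time course replicate 1: *Socs3* at 0.5 h (-2.92, adjusted p = 0.0162) and 1 h (-1.73, adjusted p = 0.0463), and *Cish* (-1.48, adjusted p = 0.0377), *Stat5a* (-0.78, adjusted p = 0.0475) and *Stat3* (-1.89, adjusted p = 0.0102) at 1 h. Without replicate 2 they were *Stat2* (1.26, adjusted p = 0.041) and *Stat3* (1.38, adjusted p = 0.0329) at 1 h. Summed over time points, with a gene counted at each, 133 results over all genes passed between genotypes; this became 263 with a replicate block, 217 with a pseudocount of 1 RPKM, 59 with WT above 3 RPKM, 507 with no filter, 408 with no filter and a pseudocount of 0.01 RPKM, 72 with median ratio scaling, 83 with quantile normalization, 84 with *Rn45s*-corrected depth, 0 with only the compared groups fitted, and 0 to 3434 with libraries left out. The replicate block gave *Socs3* at 0.5 h an adjusted p of 0.0913. In WT 18 changes over time of the 8 genes passed, 8 with only the compared groups fitted and 12 to 21 with libraries left out. Over all genes, counted the same way, these were 12128, 4271 with WT above 3 RPKM, 22530 with no filter, 21340 with no filter and a pseudocount of 0.01 RPKM, 1741 with only the compared groups, and 5991 to 15498 with libraries left out. In the libraries labelled *Rel*-/- 21 passed, and 4 to 25 with libraries left out, the 4 without time course replicate 1; over all genes 13806, 4631 with WT above 3 RPKM, 27230 with no filter, 24946 with no filter and a pseudocount of 0.01 RPKM, and 467 to 20202 with libraries left out. For the difference in response 0 passed throughout; over all genes 6 did, 24 with a replicate block, 41 with a time course block, 35 with that block and median ratio scaling, 0 with a pseudocount of 0.01 RPKM, 16 with 1 RPKM, 0 with WT above 3 RPKM, 122 with no filter, 45 with no filter and 0.01 RPKM, 1 with only the compared groups, 1 with *Rn45s*-corrected depth, and 0 to 94 with libraries left out. For the STAT and SOCS genes the time course block added *Stat3* at 2 h in both genotypes and at 6 h in WT, *Stat2* at 0.5 h in both and *Socs1* at 1 h in WT, and changed no other call.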
